A study of Mus musculus with 8 samples.

Results

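The 10 SR splicing factor genes Srsf1, Srsf2, Srsf3, Srsf4, Srsf5, Srsf6, Srsf7, Srsf9, Srsf10 and Srsf11 were followed in B16-F10 cells, a mouse melanoma line, across 8 RNA-seq libraries. They are 10 of the 46477 rows of the deposited table, found by their symbols, and all 10 had a mean of at least 1 FPKM (fragments scaled to transcript length and library size), as did 6917 rows in all. The family was chosen from results of the same libraries, in which Srsf5 stood out in the TCM to SFM comparison, so the values of that comparison are a description here and carry no test. Srsf12, the remaining mouse gene of that name series in the table, was listed at 0 in all 8 libraries and is not a member.

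SR proteins bind exonic enhancer sequences through RNA recognition motifs and recruit the splicing machinery through tails rich in arginine and serine, which kinases of the SRPK and CLK families phosphorylate. Several of them also accompany mRNA to the cytoplasm. Many SR genes limit their own output by splicing a poison exon or a retained intron into their transcripts, which are then degraded or kept in the nucleus, and raised SR protein levels are a known feature of many tumours.

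The melanoma cells had been cultured for 24 hours on the matrix left behind by lysed SMCs, read here as smooth muscle cells, whose species the labels do not give. The smooth muscle cells had first received siRNA for 72 hours and then spent 72 hours in 1 of 2 media, named TCM and SFM in the labels. TCM is read here as the tumor conditioned medium of the series title, made from B16-F10 cells, and SFM is not spelled out. Each medium was combined with siKLF4, siFN, siKLF4-siFN (both) and siNT, taken here as the control siRNA, which gave 8 conditions with 1 library each. The siRNA was not given to the melanoma cells, so none of the libraries can show the knockdown itself, and the labels do not say how many cultures stood behind a library.

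Promoters are printed for 4 members: Srsf5, Srsf4 and Srsf3, whose values were higher in every TCM library than in any SFM library, and Srsf6, a close relative of Srsf4 and Srsf5 whose values overlapped. Each runs 5′ to 3′ over 250 bases before and 50 bases after the RefSeq start in build GRCm38.p6, and capitals mark, on either strand, the GC box core GGGCGG, the CCAAT box and the TATA box TATAAA.
Srsf5, chr12:80945249-80945548, plus strand: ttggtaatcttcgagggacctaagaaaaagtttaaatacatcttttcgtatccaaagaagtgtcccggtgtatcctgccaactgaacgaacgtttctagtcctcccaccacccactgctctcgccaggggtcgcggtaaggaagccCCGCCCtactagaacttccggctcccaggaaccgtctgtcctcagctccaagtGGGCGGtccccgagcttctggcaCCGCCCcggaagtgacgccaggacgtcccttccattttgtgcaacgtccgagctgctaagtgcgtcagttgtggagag
Srsf4, chr4:131873387-131873686, plus strand: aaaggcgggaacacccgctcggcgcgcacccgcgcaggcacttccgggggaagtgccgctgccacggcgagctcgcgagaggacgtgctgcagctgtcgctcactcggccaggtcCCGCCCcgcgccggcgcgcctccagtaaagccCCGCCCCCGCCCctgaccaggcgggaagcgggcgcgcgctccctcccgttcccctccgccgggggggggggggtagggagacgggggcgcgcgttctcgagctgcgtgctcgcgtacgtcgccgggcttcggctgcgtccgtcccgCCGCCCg
Srsf3, chr17:29032410-29032709, plus strand: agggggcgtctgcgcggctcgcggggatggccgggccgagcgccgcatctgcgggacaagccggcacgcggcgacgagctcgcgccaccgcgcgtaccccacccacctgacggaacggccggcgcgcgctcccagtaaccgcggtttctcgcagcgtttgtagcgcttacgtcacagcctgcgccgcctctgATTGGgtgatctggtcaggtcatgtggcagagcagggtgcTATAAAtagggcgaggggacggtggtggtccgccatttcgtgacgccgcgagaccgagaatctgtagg
Srsf6, chr2:162931258-162931557, plus strand: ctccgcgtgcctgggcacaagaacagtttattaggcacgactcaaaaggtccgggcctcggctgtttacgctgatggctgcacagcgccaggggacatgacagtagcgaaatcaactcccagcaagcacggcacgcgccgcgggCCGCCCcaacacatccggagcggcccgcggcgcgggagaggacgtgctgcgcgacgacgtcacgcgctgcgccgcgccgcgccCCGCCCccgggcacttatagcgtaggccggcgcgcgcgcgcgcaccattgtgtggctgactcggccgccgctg

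GGGCGG, the core of a GC box, was found in the promoters of 9 of the 10 members, against 68.95% of the 4367 promoters of tested genes, and Srsf3 lacked it. TATAAA was found in 2 members, Srsf2 and Srsf3, against 6.25% of promoters. CCAAT stood in 4 members, against 40.2% of promoters. The ETS-like motif CCGGAAG stood in 4 members (Srsf4, Srsf5, Srsf7 and Srsf11), against 24.3%. Neither CACGTG nor TGACGTCA was found in any member, against 11.98% and 4.10% of promoters. Matches of different motifs overlapped in 1 member, Srsf5, where a GGGCGG match overlaps a CCGGAAG match.

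The estimated depth was 13900000 to 19800000 reads in the TCM libraries and 11600000 to 23100000 in the SFM libraries. Melanocyte genes were present, with Tyrp1 at 202 to 325 FPKM and Dct at 35.3 to 96.5, and 7 of 10 melanocyte markers reached a mean of 1. Of 10 smooth muscle markers 1 did (Des, 1.07), the summed level of that list was 1.68 to 2.38 in the TCM and 1.303 to 1.97 in the SFM libraries, and Acta2 and Myocd were listed at 0 throughout. None of 8 fibroblast, 6 endothelial and 6 leukocyte markers reached a mean of 1. The libraries differed in genes of cell division: the centred mean of 18 measured mitosis genes, out of a list of 26, was 0.562 in TCM siKLF4, 0.616 in TCM siFN, 0.636 in TCM siKLF4-siFN and -0.596 in TCM siNT. On SFM it was 0.635 with siKLF4, -1.23 with siFN, -1.27 with siKLF4-siFN and 0.648 with siNT. TCM siFN and TCM siKLF4-siFN were the closest of 28 pairs of libraries, with a median absolute difference of 0.064 on the log2(FPKM + 1) scale over all tested genes.

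By mean FPKM, which is a level per length, Srsf2 led the family at 65.9. It was followed by Srsf6 (44.5), Srsf1 (41.2), Srsf5 (41.2) and Srsf3 (22.3). Srsf7 (8.44), Srsf9 (7.89), Srsf10 (5.20), Srsf11 (3.12) and Srsf4 (1.295) were lower. The ranges of Srsf6, Srsf1 and Srsf5 over the 8 libraries overlapped, as did those of Srsf7 and Srsf9. Their order also changed between libraries, so it is not resolved. The ranges of Srsf10 and Srsf11 overlapped too, but within each library Srsf10 was above Srsf11. Srsf2 had a mean above that of 95.3% of tested genes and Srsf4 above 11.7%. The sum over the family was 251 to 264 FPKM in the TCM libraries and 216 to 235 FPKM in the SFM libraries, and these ranges did not overlap. Srsf5 alone made up 45.6 to 50.5 FPKM of the sum in TCM and 31.0 to 38.7 in SFM. The sum belongs to the comparison from which the family was chosen, so it is a description only.

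**Figure D1:**
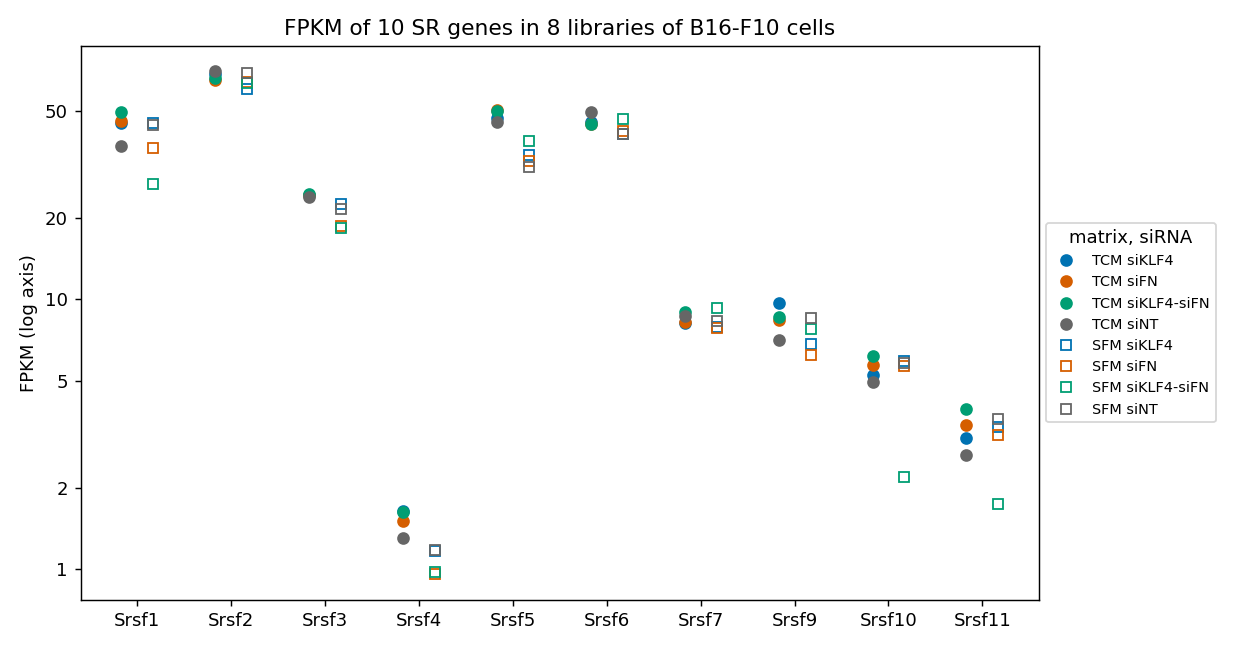
FPKM (log axis) of each SR gene in 8 libraries, with filled circles for TCM and open squares for SFM matrix and colours for the siRNA. Srsf5, Srsf4 and Srsf3 have their TCM and SFM points apart, while Srsf10 and Srsf11 have a single low point each, SFM siKLF4-siFN, at 2.19 and 1.74 FPKM.

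Srsf5, Srsf4 and Srsf3 were the members in which no TCM library overlapped an SFM library. Over all tested genes, all 4 TCM libraries were above all 4 SFM libraries in 3.63% of genes and below them in 1.82%, and no member was below. These counts describe the contrast from which the family was chosen.

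Srsf5, first described as a gene that insulin induces in rat liver cells, is encoded on chromosome 12 (80945504 to 80950507, GRCm38). It had 47.3 FPKM in TCM siKLF4, 50.5 in TCM siFN, 49.99 in TCM siKLF4-siFN and 45.6 in TCM siNT. The SFM libraries gave 34.2 FPKM with siKLF4, 32.5 with siFN, 38.7 with siKLF4-siFN and 31.0 with siNT. All 4 TCM values lay above the highest SFM value, and the mean was 48.3 ± 2.3 in TCM and 34.1 ± 3.3 in SFM (SD over 4 libraries that differ in siRNA). The ratio of these means was 1.42. The TCM minus SFM difference on the log2(FPKM + 1) scale was 0.49 ± 0.11 (SE), and 0.362 to 0.618 in the 4 matched pairs of libraries. Within a library, the ratio of Srsf5 to its relative Srsf6, which does not depend on scaling between libraries, was 0.923 to 1.13 in TCM and 0.753 to 0.833 in SFM.

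Srsf4, the largest protein of the same subfamily and also known as SRp75, is encoded on chromosome 4 (131873617 to 131901706). It had 1.64 FPKM in TCM siKLF4, 1.51 in TCM siFN, 1.63 in TCM siKLF4-siFN and 1.31 in TCM siNT. Cells on SFM matrix had 1.17 FPKM with siKLF4, 0.955 with siFN, 0.979 with siKLF4-siFN and 1.17 with siNT. The TCM values were again all higher, with a ratio of the means of 1.42 and a difference of 0.29 ± 0.09 (SE, log2). On the log2(FPKM + 0.1) scale the difference was 0.473, since a pseudocount of 1 is close to the level of this gene. About 45 to 115 reads stood behind each value. In the siNT pair, TCM was 11.5% above SFM with a counting error of 16.1%, so the gap in that pair is within counting error. In the other pairs it was 40.7% to 66.3%, with counting errors of 15.4% to 18.1%. An overlapping gene on the other strand, Gm12992, had a mean of 0.0939 FPKM.

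Srsf3, the smallest SR protein, which acts in splicing, polyadenylation and export and is often raised in tumours, is encoded on chromosome 17 (29032628 to 29043373). It had 24.4 FPKM in TCM siKLF4, 24.5 in TCM siFN, 24.5 in TCM siKLF4-siFN and 24.0 in TCM siNT. On SFM its FPKM was 22.6 with siKLF4, 18.8 with siFN, 18.3 with siKLF4-siFN and 21.6 with siNT. The 4 TCM libraries were nearly equal, while the SFM libraries with siFN were below those without it. The means were 24.4 ± 0.21 in TCM and 20.3 ± 2.1 in SFM (SD over 4 libraries), and the difference was 0.26 ± 0.12 (SE, log2).

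**Figure D2:**
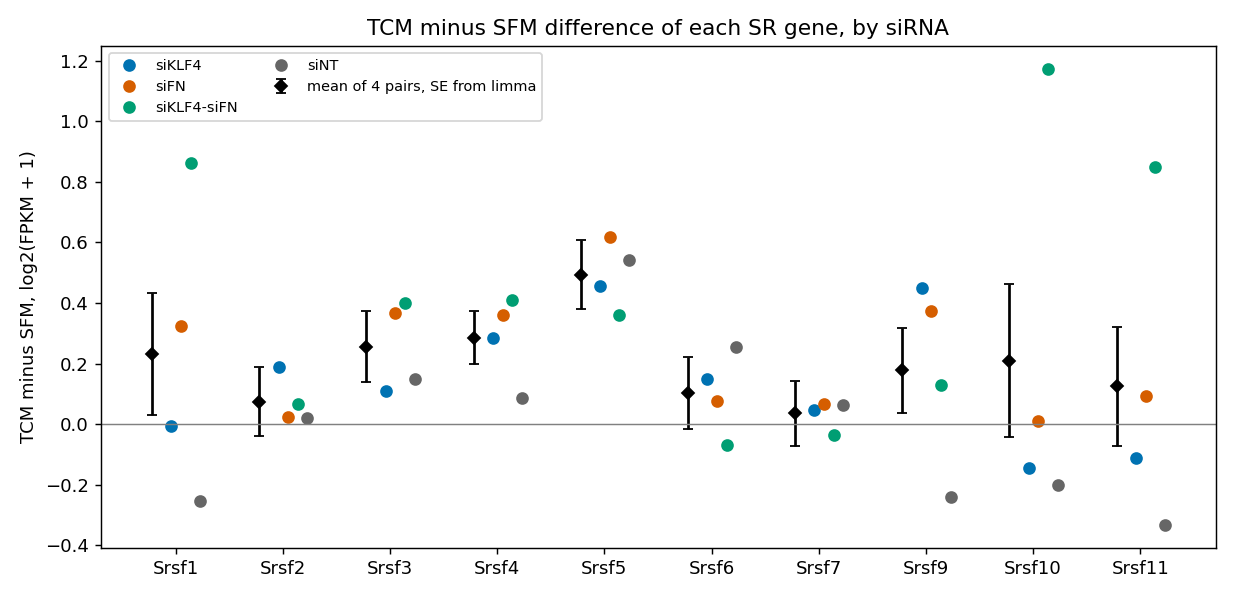
TCM minus SFM difference on the log2(FPKM + 1) scale for each SR gene, with a coloured point for each siRNA pair of libraries and a black diamond for their mean with its SE from limma. The 4 points of Srsf5 lie between 0.362 and 0.618, while Srsf1, Srsf10 and Srsf11 have points on both sides of 0 and their highest in the siKLF4-siFN pair.

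Near-identical copies elsewhere in the genome bear on these values, because counting can divide reads between them. A processed pseudogene of Srsf5, Gm12966 on chromosome 4 (129899093 to 129899902), matches the Srsf5 transcript at 99.0% over 810 bases. It had 138 FPKM in TCM siKLF4, 145 in TCM siFN, 140 in TCM siKLF4-siFN and 135 in TCM siNT. The SFM libraries gave 86.5 FPKM with siKLF4, 70.0 with siFN, 98.7 with siKLF4-siFN and 82.7 with siNT. Its FPKM was thus above that of Srsf5 in every library, and its TCM values were all above its SFM values, with a difference of 0.72 ± 0.14 (SE, log2). How many of these reads came from Srsf5 cannot be told from the table.

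Srsf3 has the pseudogene Gm9761 on chromosome 3 (116560935 to 116561426), which matches at 99.6% over 492 bases. It had 67.3 FPKM in TCM siKLF4, 74.1 in TCM siFN, 70.3 in TCM siKLF4-siFN and 64.5 in TCM siNT. Cells on SFM matrix had 48.5 FPKM with siKLF4, 40.9 with siFN, 44.1 with siKLF4-siFN and 41.5 with siNT. These groups did not overlap either (0.65 ± 0.12, SE, log2). The longer copy Gm12355, which matches at 98.3% over 1298 bases and is annotated as protein coding, stood at 21.1 to 24.3 FPKM in TCM and 23.0 to 25.8 in SFM, with overlap. Gm7083, a low copy, had 1.76 to 3.87 FPKM in TCM and 0.844 to 2.48 in SFM.

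When each member was summed with its copies as FPKM times exonic length in kilobases, Srsf5 averaged 306 ± 12 in TCM and 204 ± 22 in SFM, and Srsf3 averaged 258 ± 3.1 in TCM and 214 ± 18 in SFM (SD over 4 libraries, a sum added after the data were seen). Neither sum overlapped between media. Srsf10 has the pseudogenes Gm9134 and Gm5446, and its sum was 60.3 to 76.9 in TCM and 33.4 to 74.6 in SFM. These sums use GENCODE exonic lengths, which may differ from the lengths the authors used. No copy at 95% identity over 300 bases was found for the other members, apart from overlapping transcripts of neighbouring genes, and a further Srsf3 pseudogene of the annotation had no row in the table.

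**Figure D3:**
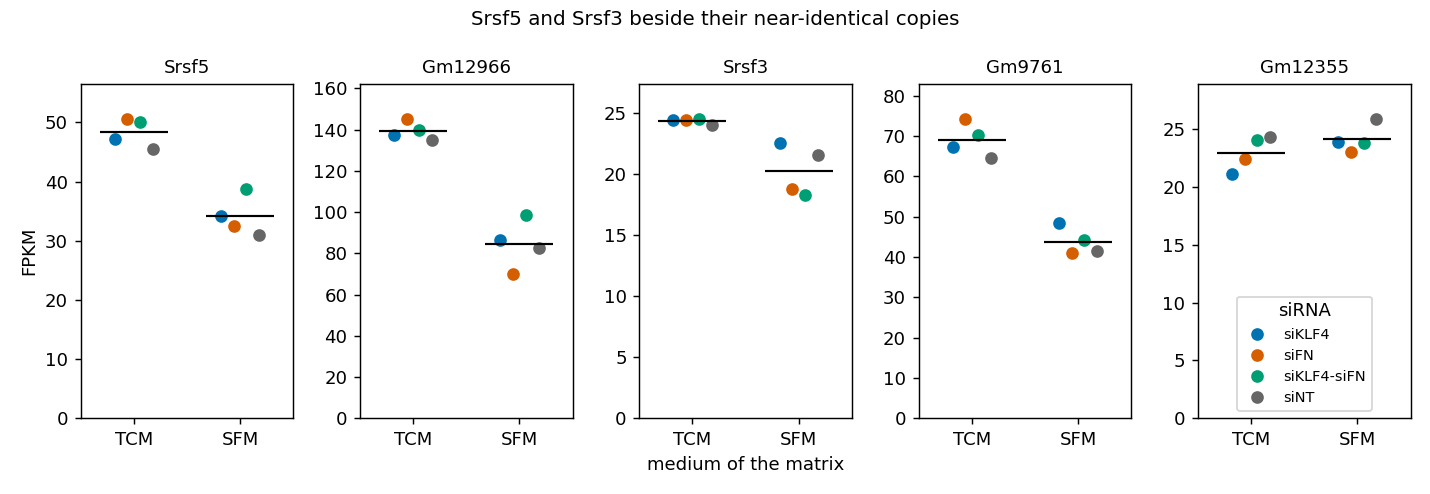
FPKM of Srsf5 and its pseudogene Gm12966, and of Srsf3 with Gm9761 and Gm12355, by medium of the matrix, with a point per library coloured by siRNA and a line at the mean. Gm12966 averages 139 in TCM and 84.5 in SFM, Gm9761 averages 69.0 in TCM and 43.8 in SFM, and Gm12355 overlaps between the media.

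Srsf1, Srsf10 and Srsf11 made up another pattern, with their lowest values in SFM siKLF4-siFN. That library also held the lowest value of Srsf3 and of 27.1% of all tested genes, a larger share than any other library. Srsf1, the founding SR protein and a known oncogene, is encoded on chromosome 11 (88047373 to 88053755). It had 44.9 FPKM in TCM siKLF4, 45.9 in TCM siFN, 49.4 in TCM siKLF4-siFN and 37.1 in TCM siNT. On SFM its FPKM was 45.1 with siKLF4, 36.4 with siFN, 26.7 with siKLF4-siFN and 44.4 with siNT. The 3 lowest values, SFM siKLF4-siFN, SFM siFN and TCM siNT, belonged to the libraries whose mitosis mean was below 0. The part of cell division in this was not tested.

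Srsf10, which represses splicing when dephosphorylated, is encoded on chromosome 4 (135855747 to 135869908). It had 5.25 FPKM in TCM siKLF4, 5.70 in TCM siFN, 6.20 in TCM siKLF4-siFN and 4.92 in TCM siNT. The SFM libraries gave 5.91 FPKM with siKLF4, 5.65 with siFN, 2.19 with siKLF4-siFN and 5.81 with siNT. A single library was low, and the 7 others lay between 4.92 and 6.20. On the log2 scale SFM siKLF4-siFN differed by -1.06 from SFM siFN and by -1.12 from SFM siKLF4, and TCM siKLF4-siFN was 1.17 above it. A difference of at least 1 was seen in 2.99%, 9.87% and 10.2% of tested genes in the same comparisons of single libraries, and in no other member. The pseudogene Gm9134 was also lowest there, at 11.2 FPKM against 16.8 to 31.3 in the other libraries.

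Srsf11, an SR protein also known as p54, is encoded on chromosome 3 (158010473 to 158036639). It had 3.05 FPKM in TCM siKLF4, 3.42 in TCM siFN, 3.94 in TCM siKLF4-siFN and 2.66 in TCM siNT. Cells on SFM matrix had 3.38 FPKM with siKLF4, 3.15 with siFN, 1.74 with siKLF4-siFN and 3.61 with siNT. Estimated reads were 191 or more for both Srsf10 and Srsf11 in every library, so counting error was at most 7.24%. The centred values of Srsf10 and Srsf11 had a Pearson correlation of 0.95, and those of Srsf1 and Srsf11 of 0.94 (8 libraries, with SFM siKLF4-siFN far from the rest). Between Srsf3, Srsf4 or Srsf5 and Srsf1, Srsf10 or Srsf11, it ran from 0.04 (Srsf5 and Srsf10) to 0.78 (Srsf1 and Srsf3). Srsf3 and Srsf5 had 0.70, so the patterns were not cleanly separate. Without SFM siKLF4-siFN, the TCM minus SFM difference was -0.10 for Srsf10 and -0.09 for Srsf11, against 0.21 ± 0.25 and 0.12 ± 0.20 (SE, log2) with all 8 libraries.

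**Figure D4:**
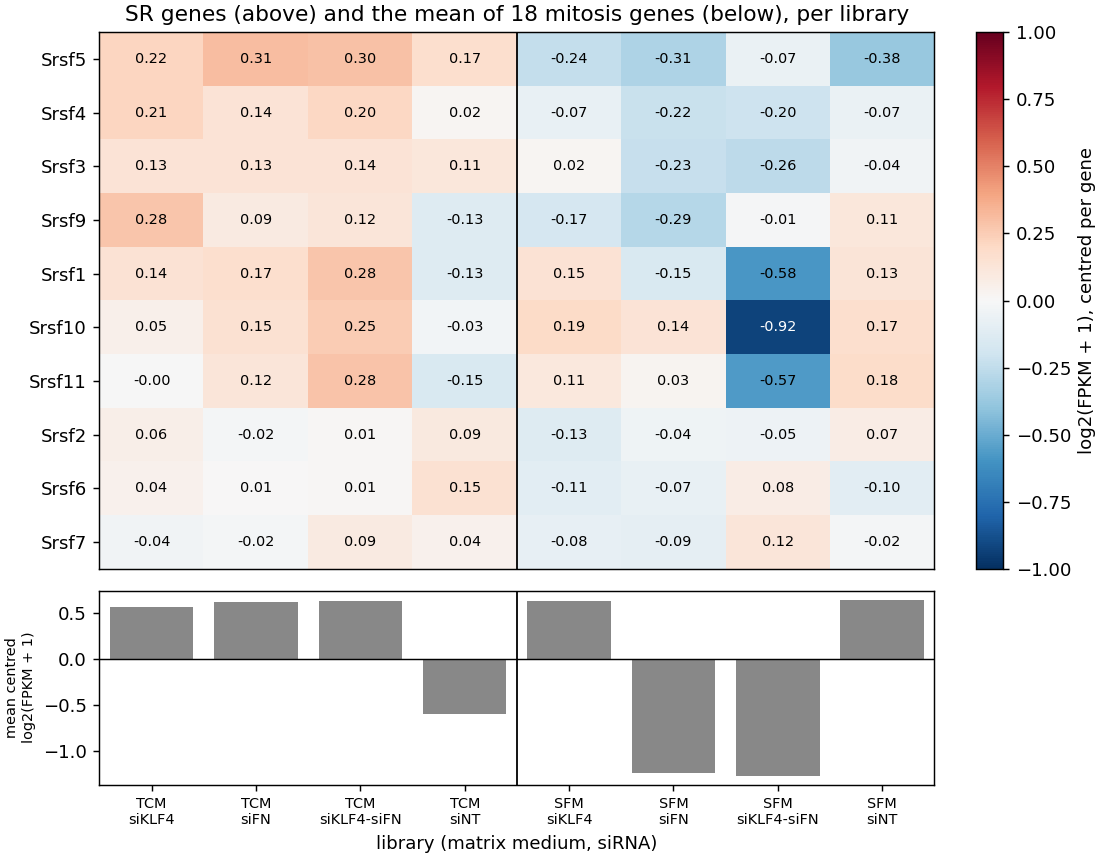
Above, log2(FPKM + 1) of each SR gene centred on its own mean, per library, with red above and blue below the mean and the TCM libraries left of the line. Below, bars give the mean of 18 mitosis genes centred in the same way; Srsf10 is at -0.92 in SFM siKLF4-siFN, where the mitosis mean is -1.27.

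Srsf2, Srsf6 and Srsf7 varied least. Srsf2, or SC35, which marks nuclear speckles, stood at 65.0 to 70.3 FPKM in TCM and 60.1 to 69.3 in SFM. Srsf6, a relative of Srsf4 and Srsf5 whose overexpression causes skin overgrowth in mice, stood at 44.6 to 49.4 FPKM in TCM and 41.1 to 46.9 in SFM. Srsf7, a zinc knuckle protein close to Srsf3, stood at 8.19 to 9.01 FPKM in TCM and 7.86 to 9.27 in SFM. In each of them the highest value over the lowest was 1.17 to 1.202, against a median of 1.69 over tested genes with a mean of at least 5 FPKM. Their media differences were 0.07 ± 0.11, 0.10 ± 0.12 and 0.03 ± 0.11 (SE, log2). With 1 library left out they ran from 0.03 to 0.104 for Srsf2, from 0.049 to 0.163 for Srsf6 and from -0.002 (without SFM siFN) to 0.082 (without SFM siKLF4-siFN) for Srsf7. Srsf2 shares 460 exonic bases with Mettl23 and 288 with Mfsd11 on the other strand, which had means of 1.01 and 3.37 FPKM, and the strand setting of the counting is not given in the sources used here.

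Srsf9, a close relative of Srsf1, overlapped between media and was not lowest in SFM siKLF4-siFN. Its centred values had a Pearson correlation of 0.73 with Srsf4 and 0.52 with Srsf3 and Srsf5. With Srsf1, Srsf10 and Srsf11 the correlation was 0.39, 0.03 and 0.18. Srsf9 had 9.71 FPKM in TCM siKLF4, 8.37 in TCM siFN, 8.59 in TCM siKLF4-siFN and 7.07 in TCM siNT. On SFM its FPKM was 6.85 with siKLF4, 6.23 with siFN, 7.77 with siKLF4-siFN and 8.53 with siNT. TCM was higher in 3 of 4 pairs and lower in the siNT pair, and the difference was 0.18 ± 0.14 (SE, log2), or 0.099 to 0.294 with 1 library left out. All 10 members had a media difference above 0 (median 0.194), as did 54.9% of tested genes (median 0.022). The members' median was 0.121 without TCM siKLF4-siFN and 0.128 without SFM siKLF4-siFN. In the additive limma model 0% of tested genes passed an adjusted p of 0.05 for medium, and 6.71% had an unadjusted p under 0.05. The family was chosen from this contrast, so no p is given for any member.

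The siKLF4 and siFN comparisons, averaged over the other factors, gave small differences among the members. For siKLF4 against no siKLF4, 6 of 10 members lay above 0 (median 0.011, against 0.008 over all tested genes), from Srsf10 at -0.21 ± 0.25 to Srsf9 at 0.11 ± 0.14 (SE, log2). For siFN against no siFN, 3 of 10 lay above 0 (median -0.047, against -0.022), from Srsf10 at -0.19 ± 0.25 to Srsf5 at 0.12 ± 0.11. Neither median kept its sign: the siKLF4 median was -0.005 with median ratio scaling and -0.004 without TCM siNT, and the siFN median was 0.021 with array weights. Srsf5 was higher with siFN in 4 of 4 pairs, by 0.067 to 0.173, and every other member in 1 or 2. The share of all tested genes with 4 of 4 was not counted. Again 0% of tested genes passed for siKLF4 or for siFN, with 1.21% of genes at an unadjusted p under 0.05 in each. Both comparisons were named together with the family, so the members' values are a description and carry no test. The residual of this model contains the media by siFN contrast, so missing calls do not show that siKLF4 or siFN had no effect.

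A further contrast, the interaction of media with siFN, set the TCM minus SFM difference with siFN against that without it, and it was not named in the choice of the family. Among the members it was largest in Srsf10 (0.77 ± 0.41, SE, log2, adjusted p = 0.233, limma over all tested genes), Srsf1 (0.72 ± 0.28, adjusted p = 0.130) and Srsf11 (0.69 ± 0.28, adjusted p = 0.141). It was near 0 in Srsf5 (-0.01 ± 0.21), Srsf2 (-0.06 ± 0.21) and Srsf7 (-0.04 ± 0.20), and SEs of that size leave moderate differences in either direction undetectable. No member passed, against 7.17% of tested genes, and 2 members were under an unadjusted p of 0.05, against 33.6% of genes. The members' median was 0.173, against -0.062 over all tested genes. Without SFM siFN, the interaction was 1.01 for Srsf1, 1.33 for Srsf10 and 1.03 for Srsf11. That fit leaves SFM siKLF4-siFN as the only SFM library with siFN. Without SFM siKLF4-siFN, it was 0.20 for Srsf10, 0.44 for Srsf1 and 0.35 for Srsf11.

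In the same model, all 10 members lay above 0 for TCM minus SFM with siFN (median 0.384, against -0.012 over all tested genes). The difference was 0.38 ± 0.11 for Srsf4 and 0.49 ± 0.15 for Srsf5 (SE, log2). Without siFN, 7 members lay above 0 (median 0.104, against 0.031). Over all tested genes, 16.9% passed with siFN and 0% without it (38.6% and 9.07% at an unadjusted p under 0.05). Both contrasts are part of the media comparison from which the family was chosen, so they too carry no test of the members. For siFN on SFM matrix, Srsf1 differed by -0.51 ± 0.20, Srsf10 by -0.57 ± 0.29 and Srsf11 by -0.41 ± 0.20, and no member passed, against 6.92% of genes (1 member and 33.5% unadjusted). For siFN on TCM matrix, 8 members lay above 0 (median 0.043, against -0.039), and 0% of genes and no member passed (no member and 5.65% of genes unadjusted). Both siFN contrasts are part of the siFN comparison named with the family, so they only describe the members. Interactions of siKLF4 with media and of siKLF4 with siFN had 0% of genes and no member passing (no member, and 1.13% and 0.578% of genes, unadjusted).

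Other genes of the splicing pathway came from lists. The calls below stood close to the threshold: with a pseudocount of 0.1, and without any of SFM siKLF4, SFM siKLF4-siFN, SFM siNT, TCM siFN or TCM siKLF4-siFN, 0 of the 6917 genes passed the interaction. Without SFM siFN 2065 genes passed, against 496 with all libraries. Of 27 measured SR and SR-related factors outside the family, out of 35 listed, 6 rose in the media by siFN interaction and none fell (median 0.391, against -0.062 over all tested genes and 7.17% of them called). They included Bclaf1 (2.09 ± 0.41, SE, log2, adjusted p = 0.0433), an SR-related factor of mRNA processing, Srek1 (1.16), Luc7l3 (1.60), which is related to a U1 snRNP protein, and Sltm (1.32). Bclaf1 had 1.69 FPKM in TCM siKLF4, 3.47 in TCM siFN, 3.73 in TCM siKLF4-siFN and 1.34 in TCM siNT. The SFM libraries gave 4.19 FPKM with siKLF4, 1.72 with siFN, 0.440 with siKLF4-siFN and 3.09 with siNT. Bclaf1 was lowest in SFM siKLF4-siFN, as 27.1% of tested genes were. The others named were low genes and also lowest there. Srek1 had 0.453 FPKM in that library, against 0.971 to 2.03 in the other libraries. Luc7l3 had 0.131 against 0.572 to 1.98, and Sltm had 0.167 against 0.580 to 1.66. Pnn, an SR-related protein of nuclear speckles, had 1.14 FPKM there, against 4.58 to 12.8 in the other libraries.

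The kinases that phosphorylate SR proteins showed calls too. Of 10 measured kinases and importins out of 15 listed, 3 rose in the interaction and none fell: Clk1 (1.40 ± 0.26, SE, log2, adjusted p = 0.0422), Prpf4b (1.44) and Clk4 (0.68). Clk1 had 6.92 FPKM in TCM siKLF4, 9.19 in TCM siFN, 9.98 in TCM siKLF4-siFN and 6.37 in TCM siNT. Cells on SFM matrix had 8.28 FPKM with siKLF4, 4.74 with siFN, 3.10 with siKLF4-siFN and 8.20 with siNT. Its lowest values were those of the SFM libraries with siFN, where the mitosis mean was also lowest. Prpf4b had 0.182 FPKM in SFM siKLF4-siFN, against 0.573 to 1.86 in the other libraries. Of the 18 measured mitosis genes, 17 rose in the interaction (median 2.36), and the part of cell division in the kinase values was not tested.

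Among 30 measured hnRNP proteins, many of which oppose SR proteins at exons, none passed the interaction (median 0.269). Hnrnpa1, the best known of these, came nearest at 1.29 ± 0.30 (SE, log2, adjusted p = 0.0506). For TCM minus SFM with siFN, 7 hnRNP genes and 9 of the other SR-related factors were higher and none lower, against 16.9% of all tested genes called either way. That contrast called 0 genes when TCM siFN, TCM siKLF4-siFN or SFM siKLF4-siFN was left out, and 2243 when SFM siFN was. Of 20 other splicing regulators, 1 rose in the interaction, Mbnl2 (1.31, adjusted p = 0.0433). Mbnl2 had 0.303 FPKM in SFM siKLF4-siFN, against 1.015 to 2.16 in the other libraries. None of 44 core spliceosome genes passed the interaction (median 0.031). None of 11 genes of nonsense-mediated decay and the exon junction complex (median -0.019) and none of 9 mRNA export genes (median 0.036) passed either. By medium, all TCM values were above all SFM values in 3.63% of all tested genes. This held for 6 of 27 SR-related factors, among them Safb and Safb2, and for 6 of 30 hnRNP genes, among them Hnrnpul2. It also held for 4 of 44 core genes and for 2 of 11 decay genes, Rbm8a and Upf3a. Among other splicing regulators it held for 1 of 20, and for 0 of 10 kinases and importins and 0 of 9 mRNA export genes. The lists are described by their counts, and they were not tested against each other.

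**Figure D5:**
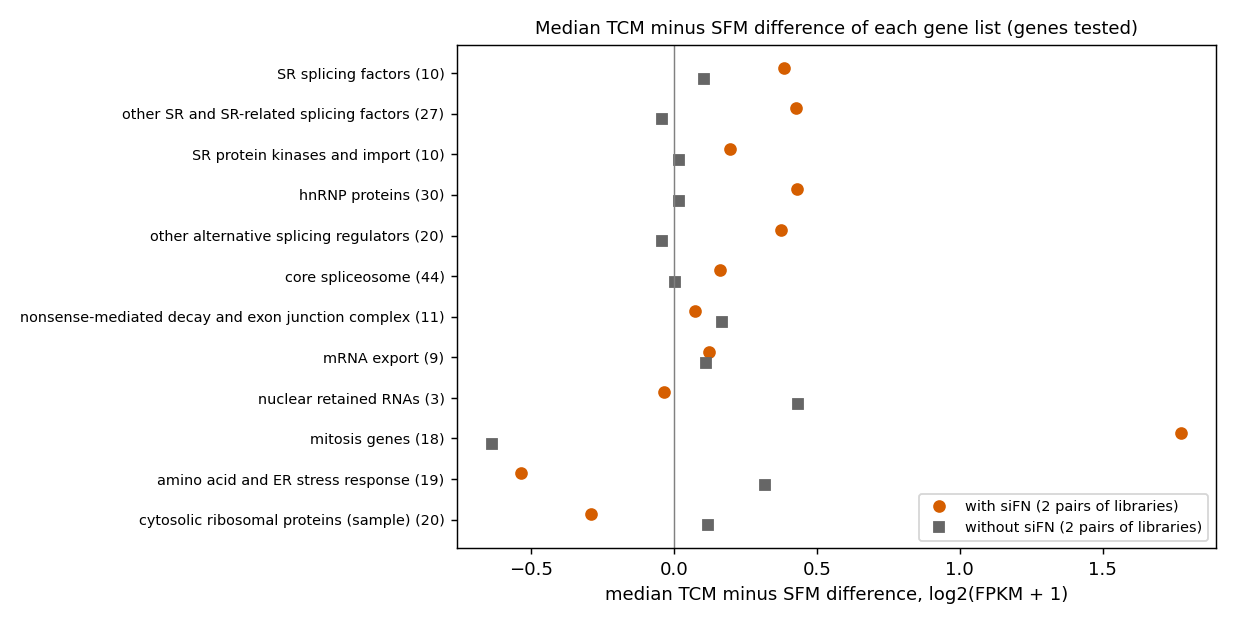
Median TCM minus SFM difference, log2(FPKM + 1), over the measured genes of each list (number in brackets), with circles for the libraries with siFN and squares for those without it. The SR family is at 0.384 with and 0.104 without siFN, and the mitosis list at 1.78 and -0.64.

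The genes whose values over the 8 libraries were most like Srsf5, among 1798 named genes with a mean of at least 5 FPKM, were Gtf2f1 (Pearson r = 0.959, Spearman rho = 0.929), Snrnp70 (0.957 and 0.929), Hnrnpf (0.955 and 0.881), Abcf1 (0.952 and 0.952) and Psmc1 (0.943 and 0.929). Snrnp70, the U1 snRNP protein that SR proteins contact, had 11.3 FPKM in TCM siKLF4, 10.9 in TCM siFN, 10.5 in TCM siKLF4-siFN and 9.48 in TCM siNT. On SFM its FPKM was 8.15 with siKLF4, 8.004 with siFN, 8.88 with siKLF4-siFN and 7.10 with siNT. The groups of Snrnp70 did not overlap, nor did those of the other genes named for likeness to Srsf5. These genes were chosen by that likeness, and the groups of Srsf5 do not overlap, so this is no separate result. The genes most like the mean centred profile of the family were Ndufb3 (r = 0.971, rho = 0.976), Rps3a2, Timm8b, Srp9 and Utp3 (r = 0.962 to 0.969). That profile was 0.109 in TCM siKLF4, 0.108 in TCM siFN, 0.168 in TCM siKLF4-siFN and 0.014 in TCM siNT, and on SFM it was -0.033 with siKLF4, -0.123 with siFN, -0.247 with siKLF4-siFN and 0.005 with siNT. These correlations describe 8 libraries that differ in depth and include a very similar pair.

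The annotation shows how many forms a single FPKM value of an SR gene combines. In GENCODE M21, 9 of the 10 members have a transcript annotated as a target of nonsense-mediated decay, against 28.7% of 5331 tested protein-coding genes, and Srsf10 has none. A retained intron transcript is annotated for 8 of 10, against 63.2%. Srsf11 has 19 transcripts, of which 11 are retained introns and 3 decay targets, and Srsf5 has 12, of which 3 are retained introns and 1 is a decay target. The deposited values are per gene, so productive and unproductive forms were not separated here.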

How the data were processed

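RNA of B16-F10 cells was sequenced in 8 libraries, 1 per condition. The authors deposited FPKM values, 1 column per library, made with STAR 2.4.1d and Partek on mouse build mm10, per the submitters' processing notes. How reads were counted, on which annotation and with which strand setting is not given in the sources used here. From these values, log2(FPKM + 1) was fitted with limma 3.58.1 in R 4.3.3 across all 6917 rows with a mean FPKM of at least 1, its variance trend on, p-values two-sided and adjusted by Benjamini-Hochberg over all rows. Media, siKLF4 and siFN were fitted additively (4 residual degrees of freedom), and each interaction in a model with that term added (3 residual degrees of freedom). Libraries sharing a level stand in for replicates, and no label names separate cultures, so the p-values reflect variation among these libraries alone, which may be technical. Differences on this scale understate changes of low genes.

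Depth was estimated from FPKM steps of genes with 1 transcript over 600 nucleotides. At the chosen step, 44.1% to 46.8% of low values lay within 0.05 read of a whole number, so depths and read numbers are approximate and intervals cover counting error only. Copies were found with megablast against GENCODE M21 transcripts. Promoters are from RefSeq (GRCm38.p6), matched by symbol for all 10 members. The interaction model was checked on simulated data.

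The members and lists were chosen with earlier results of these data known. Named genes are the members, up to 4 genes of each list with the smallest interaction p, up to 3 with the largest media difference, and the 5 most like Srsf5 or the family mean. Pseudogene copies were named after their values were seen.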

Additional observations from a re-analysis of the deposited data

Results flagged for a closer look

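In Srsf1, Srsf10 and Srsf11, TCM was higher than SFM in both pairs of libraries with siFN and lower in both pairs without it. Some of these signs rest on differences near 0: Srsf10 differed by 0.01 in the siFN pair (5.70 FPKM in TCM and 5.65 in SFM) and Srsf1 by -0.006 in the siKLF4 pair (44.9 FPKM in TCM and 45.1 in SFM), both within counting error. The difference between these effects was 0.724 for Srsf1, 0.765 for Srsf10 and 0.693 for Srsf11 on the log2(FPKM + 1) scale. The limma test of that difference did not pass in any of the 3 (adjusted p = 0.130, 0.233 and 0.141). Srsf7 was higher with siFN in both pairs that also had siKLF4 and lower in both pairs without siKLF4, and these effects differed by 0.231 (limma adjusted p = 1.0).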

How the results depend on the processing

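No member passed the media by siFN interaction, TCM minus SFM with siFN, or siFN on SFM matrix with all 8 libraries. Leaving out 1 library gave 0 to 3 members for the interaction, 0 to 4 for TCM minus SFM with siFN and 0 to 3 for siFN on SFM matrix, and only the fit without SFM siFN gave any. The counts for siFN on SFM matrix only describe the members, as it is part of the siFN comparison named with the family. TCM minus SFM with siFN is part of the contrast that chose the family, and so no test of its members. It had 2 members among protein-coding genes alone, where 1347 of 5343 genes were called. Median ratio scaling gave 2 members, with 1158 of 6917 genes called. Without a variance trend there was 1 member, with 1100 of 6917 genes called. In TCM minus SFM without siFN, siFN on TCM matrix and both interactions with siKLF4, every alternative run gave 0 members. Hardly any gene was called in these contrasts, so that count says little about the members. With no filter, 8 of 21556 genes passed for TCM minus SFM without siFN and 13 for siFN on TCM matrix. Among protein-coding genes 1 of 5343 passed for TCM minus SFM without siFN, and all other runs called 0 genes. Over all genes, the interaction called 496, against 251 at a mean of at least 5 FPKM, 14 with no filter, 1006 among protein-coding genes, 0 with a pseudocount of 0.1 and 0 to 2065 with 1 library left out. TCM minus SFM with siFN called 1172, against 626, 14, 1347, 837 and 0 to 2243 under the same alternatives and 0 with array weights. For siFN on SFM matrix they were 479, against 259, 10, 968, 281 and 0 to 1835, and 0 with array weights. Small interactions changed sign. With median ratio scaling they were 0.008 for Srsf2, 0.059 for Srsf5 and 0.021 for Srsf7. With 1 library left out they ranged from -0.157 to 0.039 for Srsf2, -0.10 to 0.084 for Srsf5, -0.152 to 0.071 for Srsf7 and -0.112 to 0.408 for Srsf9. The cause was not tested. Srsf3, Srsf4 and Srsf5 had no overlap between media under scaling. Summing with copies (chosen after seeing the data) left Srsf3 and Srsf5 without overlap. Srsf4 had no copy to sum, so its values could not change there. Leaving out a library cannot create overlap, so those runs could only keep or add members. Srsf6 joined without SFM siKLF4-siFN and Srsf2 without SFM siNT. The median media difference of the members ran from 0.121 to 0.281 with 1 library left out, that for siKLF4 from -0.004 to 0.078 and that for siFN from -0.119 to -0.001. The labels give no replicate number to pair by. A fit paired by siRNA, added after the data were seen, must give the same media differences in this balanced design, so only their SEs could change. The SEs were 0.104 to 0.254, and 0 of 6917 genes were called (345 at an unadjusted p under 0.05). Depth limits Srsf4 most, with a counting error of up to 14.9% per value.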
